A study of Mus musculus with 8 samples.

Results

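Genes that carry cholesterol out of the lysosome and out of the cell were compared between a pair of mouse striatal cell lines that differ in the length of the polyglutamine stretch of huntingtin. The members were 10 genes: Abca1, Abcg1, Npc1, Npc2, Lipa, Apoe, Nr1h2, Nr1h3, Mylip and Soat1. Every probe set that the array's gene annotation paired with exactly 1 of them was taken, which gave 16 of the 45037 probe sets on the arrays and 8 of the 10 genes. No probe set was paired with Nr1h2 or Soat1 alone, and these members were not analysed here.

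Cells take up cholesterol as esters in lipoproteins, which bind lipoprotein receptors and end in the lysosome. There Lipa, lysosomal acid lipase, frees the cholesterol, and the soluble carrier Npc2 hands it to the membrane protein Npc1 for export. Surplus sterol is esterified by Soat1 or leaves the cell through the transporters Abca1 and Abcg1, which load it onto apolipoproteins such as Apoe. Oxysterols activate the liver X receptors Nr1h3 (LXR alpha) and Nr1h2 (LXR beta), which pair with retinoid X receptors and switch on Abca1, Abcg1, Apoe and Mylip. Mylip, also called IDOL, is a ubiquitin ligase that sends lipoprotein receptors to degradation. The brain makes its own cholesterol and moves it between cells in Apoe particles, for the most part from astrocytes.

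Total RNA of 4 SThdh7/7 samples and 4 SThdh111/111 samples was hybridised to whole-genome mouse expression arrays, 1 array a sample. Lines with these names are neural cells from the embryonic striatum of mice with a modified Htt gene, immortalised with a temperature-sensitive large T antigen. The numbers 7 and 111 name the Htt alleles, both alleles in each line, and the allele named 111 serves as a model of Huntington's disease. The labels give no treatment, age or growth condition for either line. Each group is a single line, so that genotype and any other difference between the lines cannot be told apart, and since nothing says that the samples were separate cultures, p-values measure the spread between these samples, which may be technical.

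Levels are log2 of the deposited intensity. A detection floor was set at a log2 of 7.02. It is the highest value, over the 8 arrays, of the 95th percentile of 27 control probe sets for bacterial transcripts. This highest value belonged to SThdh7/7 sample 2. The percentile differed by line without overlap, as an intensity of 98.7 to 130.0 for SThdh7/7 and only 72.0 to 77.5 for SThdh111/111. A SThdh111/111 signal under this common floor can therefore still exceed the control percentile of its own array. The number of arrays limits the precision. SThdh7/7 samples 1 and 2 stood apart, with median intensities of 173.9 and 174.0 against 136.2 to 147.0 on the other 6 arrays and lower hybridisation controls, and members above the floor are therefore also given without them. Over all probe sets kept by a filter on dim signals the median difference, SThdh111/111 minus SThdh7/7, was -0.12, and it was 0.04 once arrays had been centred on their medians, which raised the higher share of all calls from 44.0% to 60.5%. Of marker genes of cell types, 2 of 10 for microglia and macrophages rose (Csf1r and Cd14) and 1 fell (Cd68), and Aif1, Ptprc and Itgam were below the floor on all arrays. Their summed intensity was 2960.1 to 3793 in SThdh7/7 and 2451 to 2692 in SThdh111/111. Cd68, the brightest of them in SThdh7/7, went from a mean log2 intensity of 10.56 to 8.80. Of 8 astrocyte markers Slc1a3, partly below the floor in SThdh7/7, rose and Aldh1l1 fell. S100b and Gjb6 were below the floor on all arrays, and the sums were 2101 to 2727 and 1232 to 1601. Aldh1l1, the brightest of these markers in SThdh7/7, went from 10.61 to 8.15. Of 8 markers of striatal projection neurons 7 were measured, and Penk alone was called, higher in SThdh111/111 and partly below the floor in SThdh7/7. Ppp1r1b, Drd1 and Gad1 were below the floor on all arrays, and the sums were 574 to 818 and 1338 to 1420.0. Penk, the brightest of these markers in SThdh111/111, went from 6.67 to 9.63. Of 6 neural progenitor markers Nes, Sox2, Pax6 and Notch1 fell and none rose, with sums of 50875 to 56743 and 47545 to 51651. Most of that sum is Vim, at a log2 intensity of 15.50 in SThdh7/7 and 15.50 in SThdh111/111, and without overlap Sox2 was 4.16-fold lower (adjusted p = 1.6e-08) and Pax6, under the floor on all SThdh111/111 arrays, at least 6.96-fold lower (adjusted p = 6.2e-06). Over all genes at the brightest probe set 29.0% were called (limma adjusted p under 0.05), 13.1% higher and 15.9% lower, and calls were more frequent among bright probe sets. The part of these markers in the results below was not tested. In RNA from many cells, fewer cells of a type and less RNA per cell cannot be told apart.

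The promoters of 4 members are shown because Abca1 is a textbook target of liver X receptors, and because Mylip, Npc2 and Lipa are the genes that rose most clearly here and have a promoter in the RefSeq table. Each line gives the 250 bases before the annotated start, 5' to 3' on the gene's own strand, from RefSeq on assembly GRCm38.p6, a table that held 8 of the 10 members. The windows are chr4:53159896-53160145 on the minus strand for Abca1, chr13:45389492-45389741 on the plus strand for Mylip, chr12:84773113-84773362 on the minus strand for Npc2 and chr19:34527475-34527724 on the minus strand for Lipa. Capitals mark matches on either strand to the motifs described after the sequences.
Abca1: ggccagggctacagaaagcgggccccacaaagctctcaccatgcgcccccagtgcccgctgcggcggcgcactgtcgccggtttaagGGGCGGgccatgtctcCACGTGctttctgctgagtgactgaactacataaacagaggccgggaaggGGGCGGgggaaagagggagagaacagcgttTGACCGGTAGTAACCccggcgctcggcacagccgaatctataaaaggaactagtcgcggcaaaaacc
Mylip: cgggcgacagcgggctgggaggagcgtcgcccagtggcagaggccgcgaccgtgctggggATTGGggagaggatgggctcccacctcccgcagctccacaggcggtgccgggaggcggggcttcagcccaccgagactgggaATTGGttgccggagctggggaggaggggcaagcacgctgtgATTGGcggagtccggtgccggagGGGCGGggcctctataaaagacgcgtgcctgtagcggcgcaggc
Npc2: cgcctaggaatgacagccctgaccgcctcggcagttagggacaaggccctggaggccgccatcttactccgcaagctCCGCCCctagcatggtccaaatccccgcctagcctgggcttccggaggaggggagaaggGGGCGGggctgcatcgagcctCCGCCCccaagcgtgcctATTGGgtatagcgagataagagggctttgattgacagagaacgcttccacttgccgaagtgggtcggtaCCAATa
Lipa: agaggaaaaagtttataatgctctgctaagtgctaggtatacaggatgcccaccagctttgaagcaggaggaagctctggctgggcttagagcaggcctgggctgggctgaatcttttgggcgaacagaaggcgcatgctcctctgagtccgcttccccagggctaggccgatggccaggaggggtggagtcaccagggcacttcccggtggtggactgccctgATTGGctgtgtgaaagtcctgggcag

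Motifs were searched on both strands, and their share among all 32851 such windows is the background. A relaxed liver X receptor element, GGTNA and GGTCA with any 5 bases between them, was matched in Abca1 by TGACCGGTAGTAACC, which starts 67 bases before the start, and in 0.177% of all windows. The strict form, AGGTCA repeated after a gap of any 4 bases, was in 0.0152% of windows and in none of the member windows, nor was its half-site AGGTCA (14.0%), the sterol regulatory element TCACNCCAC (1.05%) or TCACGTGA, the core of the lysosomal CLEAR element (0.785%). The E-box CACGTG, which lies within that core, was matched once in Abca1, 147 bases before the start (6.02% of windows). The CCAAT box, searched as CCAAT, was matched in Mylip 190, 108 and 67 bases before the start, in Npc2 75 and 6 bases before it and in Lipa 26 bases before it, and in 33.8% of all windows. The GC box GGGCGG was matched in Abca1, Npc2 and Mylip and in 32.7% of all windows. The relaxed element, the CCAAT box and the GC box were added after the sequences had been seen. The CCAAT box was also matched in Soat1, 30 bases before the start. The relaxed receptor element was matched in Abca1 alone among the members with a window. Abcg1 and Npc1 had no window and were not searched. A match is a description and not a binding site.

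In SThdh111/111 the receptor-degrading ligase gene Mylip was 5.40-fold higher, the transporter gene Abcg1 2.04-fold, the lysosomal carrier gene Npc2 2.02-fold and the lysosomal lipase gene Lipa 1.80-fold, each at its brightest probe set. Abca1, Npc1, Nr1h3 and Apoe were not called at that probe set. Of the 16 member probe sets 15 passed the filter, 6 of them rose, 0 fell and 9 were not called (limma, Benjamini-Hochberg adjusted p under 0.05), against 22.4% of all kept probe sets called and 9.87% called higher. At 1 probe set a gene, 4 of 8 members rose and 0 fell, against 29.0% of all genes called and 13.1% called higher. Calls were more frequent among bright probe sets. With the filter raised to a log2 of 8, 8827 of 17603 probe sets were called, 4046 of them higher. The brightest probe sets of all analysed members but Apoe and Nr1h3 reached that level, so the shares over all genes are a low background for them. The median difference was 0.57 over the 8 genes and -0.09 over all genes. With so few members these shares are a description of the list.

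**Figure D1:**
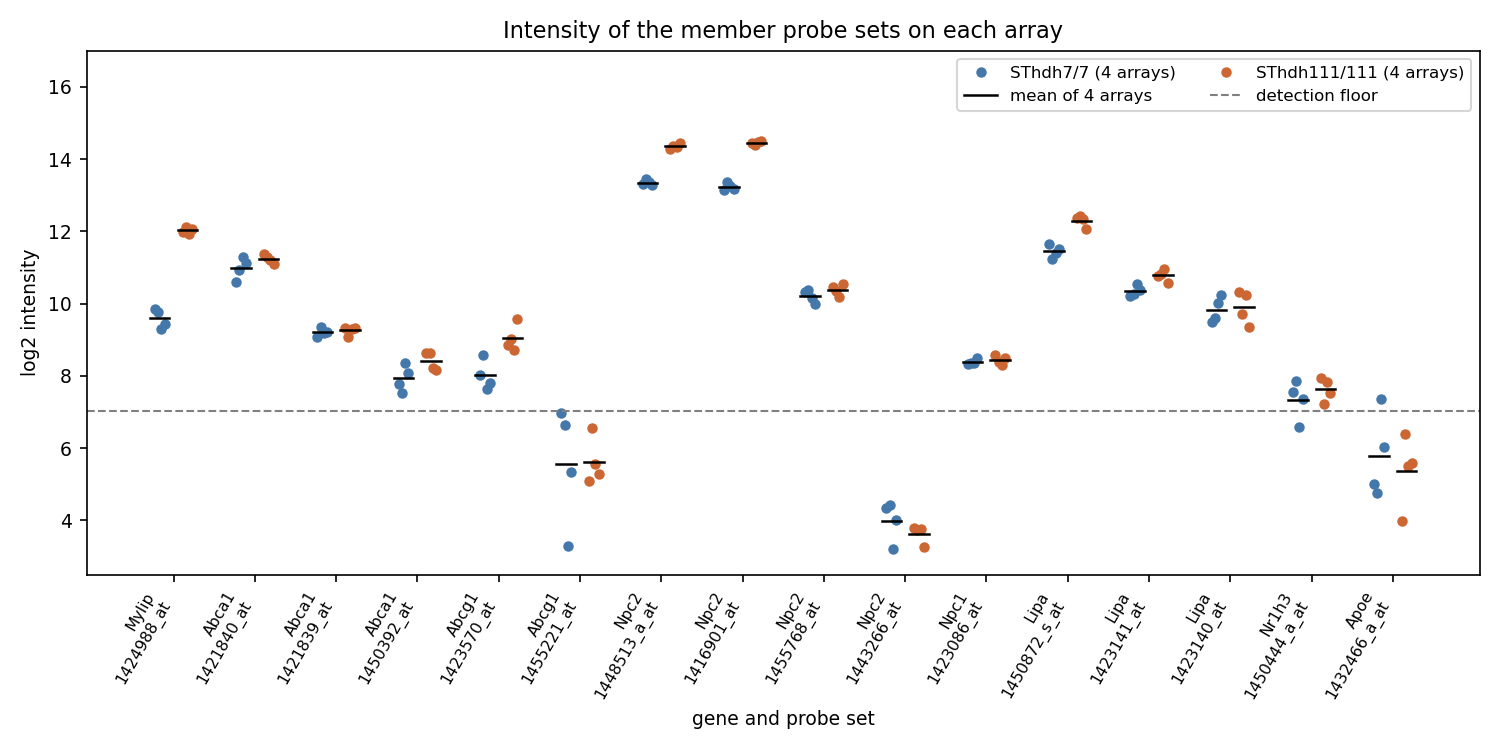
Log2 intensity (vertical axis) of each of the 16 member probe sets (horizontal axis) on the 4 SThdh7/7 and 4 SThdh111/111 arrays, with the mean of each line as a bar and the detection floor of 7.02 as a dashed line. The lines are fully apart for Mylip, for 1 of 2 Abcg1, 2 of 4 Npc2 and 2 of 3 Lipa probe sets, and the Apoe, second Abcg1 and dimmest Npc2 probe sets lie almost wholly under the floor.

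Of the receptors, Nr1h3 was measured at 7.56, 7.87, 6.59 and 7.35 on the SThdh7/7 arrays, in the order of the sample numbers, and at 7.94, 7.23, 7.83 and 7.53 on the SThdh111/111 arrays (log2 intensity, probe set 1450444_a_at). The lines overlapped, and SThdh7/7 sample 3 lay under the floor. The difference of 0.29 ± 0.30 (SE) was not called (adjusted p = 0.58), with a 95% interval of -0.37 to 0.95, and it was 0.66 without SThdh7/7 samples 1 and 2 (adjusted p = 0.21).

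Among the members that are targets of this receptor Mylip differed most. It was at 9.86, 9.78, 9.31 and 9.45 in SThdh7/7 and at 11.97, 12.13, 11.94 and 12.08 in SThdh111/111 (log2 intensity, probe set 1424988_at). Every SThdh111/111 array was brighter than every SThdh7/7 array by over 2 log2 units, and the SThdh111/111 arrays lay closer together. The difference was 2.43 ± 0.11 (SE; adjusted p = 2.2e-09), and 1.43% of all kept probe sets had as high a difference or a higher one. It was 2.65 without SThdh7/7 samples 1 and 2, which were the brighter pair of that line, and it kept its call under each of 21 alternatives, at 2.34 to 2.65.

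Abcg1, which exports cholesterol to high-density lipoprotein, was at 8.02, 8.57, 7.65 and 7.81 in SThdh7/7 and at 8.86, 9.02, 8.72 and 9.57 in SThdh111/111 (log2 intensity, probe set 1423570_at). The lines did not overlap, although SThdh7/7 sample 2 came close to SThdh111/111 sample 3. The difference was 1.03 ± 0.23 (SE; adjusted p = 0.0042), and 1.31 without SThdh7/7 samples 1 and 2 (adjusted p = 0.0017). The second Abcg1 probe set, 1455221_at, lay below the floor on all 8 arrays, at 3.30 to 6.98 in SThdh7/7 and 5.10 to 6.56 in SThdh111/111, and gives no fold. With the mean of both probe sets in place of the brighter, the difference was 0.54 and the call was lost (adjusted p = 0.43).

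Abca1, which exports cholesterol to lipid-poor apolipoproteins, had 3 probe sets, none of them called. Its brightest, 1421840_at, was at 10.60, 10.93, 11.30 and 11.14 in SThdh7/7 and at 11.37, 11.30, 11.21 and 11.11 in SThdh111/111 (log2 intensity). SThdh7/7 samples 1 and 2 were the low pair, and samples 3 and 4 lay inside or beside the SThdh111/111 range. The difference was 0.25 ± 0.12 (SE; adjusted p = 0.18; 95% interval -0.01 to 0.52). Without samples 1 and 2 it was 0.03 (adjusted p = 0.88), and without sample 3 alone it was 0.36 and called (adjusted p = 0.047). The probe set 1450392_at was at 7.53 to 8.36 in SThdh7/7 and 8.16 to 8.63 in SThdh111/111, with a difference of 0.48 ± 0.21 (SE; adjusted p = 0.14), and 0.19 without samples 1 and 2. The third, 1421839_at, differed by 0.06 ± 0.11 (SE; adjusted p = 0.78), with both lines between 9.07 and 9.35, and by 0.059 without samples 1 and 2. The relaxed element of liver X receptors printed above lies before a gene whose lines overlapped at every probe set. Whether the receptors act through it in these lines was not tested. On each array the gap between the brightest probe sets of Abcg1 and Abca1 was taken as well, and its difference between the lines was 0.77 ± 0.38 (SE; exact permutation p = 0.11, two-sided), which did not separate the pair.

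Apoe, the main apolipoprotein of brain lipid particles, was at 5.01, 4.75, 7.35 and 6.05 in SThdh7/7 and at 4.00, 6.40, 5.51 and 5.59 in SThdh111/111 (log2 intensity, probe set 1432466_a_at). Only SThdh7/7 sample 3 was above the floor, and both means lay under it. No fold is therefore given (adjusted p = 0.75), and the sign of the difference turned when either SThdh7/7 sample 3 or SThdh111/111 sample 1 was left out. Apoe, for which 1 probe set was named, was not detectable above the floor on 7 of 8 arrays.

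**Figure D2:**
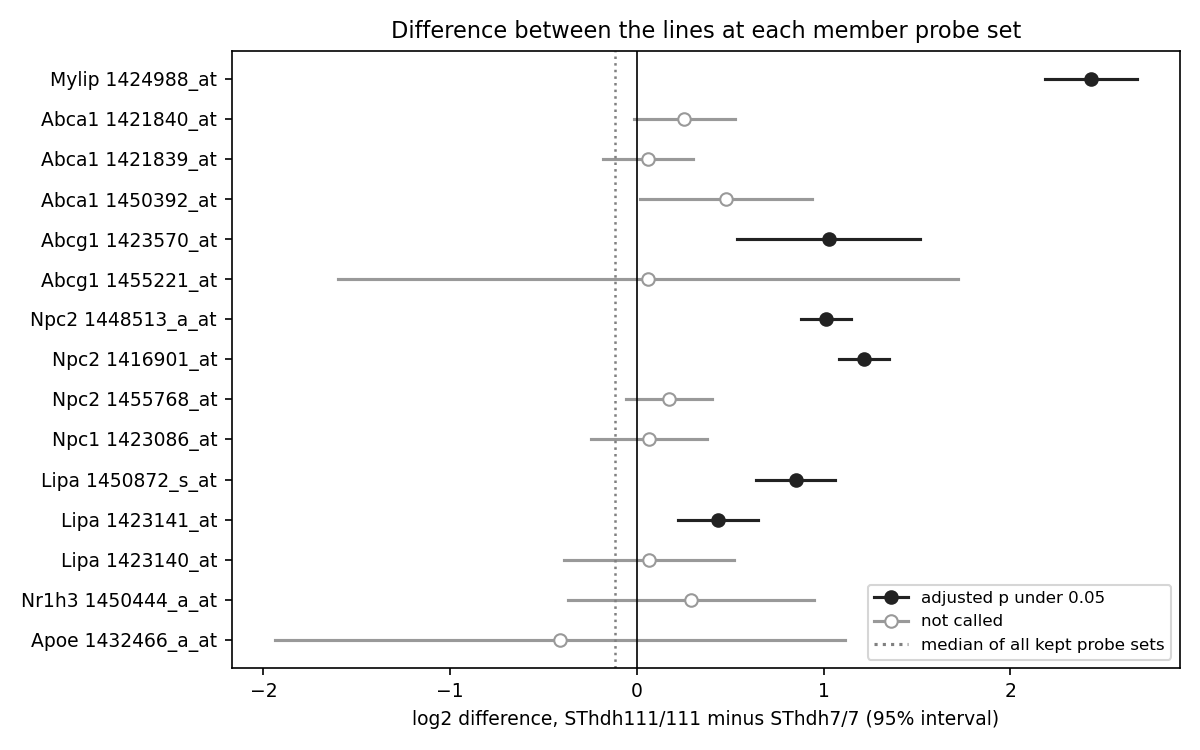
Difference between the lines (horizontal axis, log2, SThdh111/111 minus SThdh7/7) with its 95% interval at each of the 15 member probe sets kept, filled where the adjusted p was under 0.05. The 6 filled points, of Mylip, Abcg1, Npc2 and Lipa, lie between 0.44 and 2.43, and the dotted line marks the median of all kept probe sets, -0.12.

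In the lysosome, Npc2 rose at both of its bright probe sets. At 1448513_a_at it was at 13.32, 13.46, 13.36 and 13.27 in SThdh7/7 and at 14.29, 14.37, 14.35 and 14.45 in SThdh111/111 (log2 intensity), a difference of 1.01 ± 0.06 (SE; adjusted p = 3.3e-08). At 1416901_at it was at 13.14, 13.37, 13.26 and 13.18 against 14.44, 14.40, 14.47 and 14.51, a difference of 1.22 ± 0.06 (SE; adjusted p = 6.2e-09). The 4 arrays of each line lay close together, and the lines were far apart. Leaving out SThdh7/7 samples 1 and 2 gave 1.05 and 1.23. A further probe set named for Npc2 did not show this: 1455768_at was at 9.98 to 10.38 in SThdh7/7 and 10.19 to 10.54 in SThdh111/111, a difference of 0.17 ± 0.11 (SE; adjusted p = 0.31), and 0.32 without samples 1 and 2 (adjusted p = 0.073). The last, 1443266_at, was below the floor on all 8 arrays and did not pass the filter. What part of the transcripts each probe set reads was not tested.

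Npc1, the membrane protein that receives cholesterol from Npc2, was at 8.34, 8.34, 8.36 and 8.48 in SThdh7/7 and at 8.59, 8.39, 8.30 and 8.51 in SThdh111/111 (log2 intensity, probe set 1423086_at). The lines overlapped throughout. The difference was 0.06 ± 0.14 (SE; adjusted p = 0.82), with a 95% interval of -0.25 to 0.38. That interval lies below the Npc2 differences at 1448513_a_at and 1416901_at but holds the 0.17 of Npc2 at 1455768_at. Npc1 was read at only 1 probe set, so the interval cannot exclude a rise of the gene. Without SThdh7/7 samples 1 and 2 the Npc1 difference was 0.025. On each array the gap between Npc2 at 1448513_a_at and Npc1 was taken. A factor common to the whole array cancels in this gap, but scaling that varies with intensity does not. The gap was wider in SThdh111/111 by 0.95 ± 0.10 (SE), without overlap between the lines. Its exact permutation p was 0.029, the smallest that 4 against 4 arrays allow, and 0.079 after Benjamini-Hochberg adjustment over the 11 pairs of member probe sets compared in this way, which misses the threshold. These pairs, all those of 1 gene above the floor on every array plus Npc2 with Npc1 and Abcg1 with Abca1, were chosen after the values had been seen.

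Lipa rose at 2 of 3 probe sets. At its brightest, 1450872_s_at, it was at 11.66, 11.24, 11.39 and 11.50 in SThdh7/7 and at 12.37, 12.42, 12.35 and 12.07 in SThdh111/111 (log2 intensity), without overlap, a difference of 0.85 ± 0.10 (SE; adjusted p = 1.9e-05) and 0.85 again without SThdh7/7 samples 1 and 2. At 1423141_at it was at 10.21, 10.26, 10.53 and 10.39 against 10.77, 10.82, 10.96 and 10.58, a difference of 0.44 ± 0.10 (SE; adjusted p = 0.0051). SThdh7/7 sample 3 came close to SThdh111/111 sample 4 there, and the call was lost without samples 1 and 2 (0.32, adjusted p = 0.059) and when limma's variance prior was not allowed to follow intensity (no trend; adjusted p = 0.059). At 1423140_at the lines overlapped, with 9.50 to 10.24 in SThdh7/7 and 9.34 to 10.32 in SThdh111/111, and the difference was 0.07 ± 0.21 (SE; adjusted p = 0.88), or -0.22 without samples 1 and 2. The mean over the 3 probe sets differed by 0.45 (adjusted p = 0.013), while the call and the size at single probe sets varied as given.

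**Figure D3:**
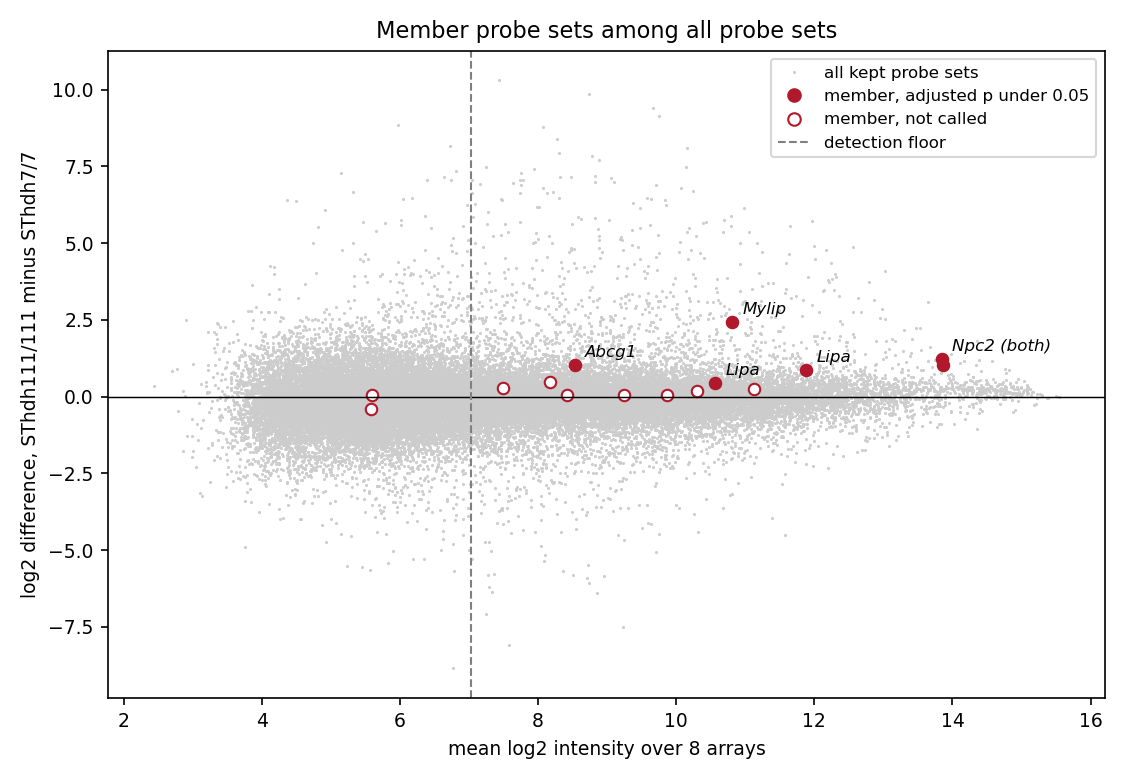
Difference between the lines (vertical axis, log2) against the mean log2 intensity over 8 arrays (horizontal axis) for all 41409 kept probe sets in grey and the 15 kept member probe sets in red, filled where called. Mylip and the 2 Npc2 probe sets that rose lie above most grey points of their intensity, the members not called lie inside it, and the dashed line is the detection floor.

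Over all members, the 6 probe sets whose lines did not overlap were the 6 that were called, while 25.1% of all kept probe sets had no overlap between the lines. Of the within-gene pairs compared on each array, Npc2 gave the only 3 without overlap between the lines: 1416901_at rose more than 1455768_at by 1.04 ± 0.11 (SE) and 1448513_a_at by 0.84 ± 0.10 (SE), and 1416901_at more than 1448513_a_at by 0.20 ± 0.04 (SE), each at the smallest exact permutation p of 0.029 (adjusted p = 0.079). The 3 pairs of Abca1 and the 3 of Lipa overlapped, with exact permutation p of 0.057 to 0.31.

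The wider pathway was read from 9 lists of 66 other genes, 57 of which were named singly by some probe set. Of these 57 genes 15 rose, 13 fell and 29 were not called, against 29.0% of all genes called, 13.1% higher and 15.9% lower, and their median difference was 0.00 against -0.09 for all genes. Among the brighter probe sets, kept by a filter at a log2 of 8, 8827 of 17603 were called, 4046 higher and 4781 lower. Calls in both directions stood within most lists, so the lists are described gene by gene. Values are at the brightest probe set of each gene, in log2 intensity as mean ± SD of 4 arrays.

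The partners of liver X receptors rose at both measured members that were above the floor. Rxra, retinoid X receptor alpha, went from 9.05 ± 0.10 in SThdh7/7 to 10.09 ± 0.08 in SThdh111/111, a difference of 1.04 ± 0.10 (SE; adjusted p = 2.3e-06). Rxrb rose by 0.42 ± 0.11 (SE; adjusted p = 0.016), a call lost without SThdh111/111 sample 1 (0.35, adjusted p = 0.059), with no trend (0.087) and with values under the floor set to it (0.052). Rxrg was below the floor on all arrays. Of 7 other targets of these receptors 1 rose and 2 fell. Smpdl3a, a phosphodiesterase gene, was under the floor on all SThdh7/7 arrays and at least 1.80-fold higher in SThdh111/111 (adjusted p = 0.0035). Pltp, the phospholipid transfer protein of lipoproteins, fell from 14.00 ± 0.16 to 12.72 ± 0.15 (adjusted p = 1.3e-07), and Srebf1, the regulator of fatty acid synthesis, fell from 11.34 ± 0.10 to 10.90 ± 0.14 (adjusted p = 0.0013), which was no longer called once arrays had been centred (difference -0.29, adjusted p = 0.11). Targets named in textbooks for 1 receptor family thus went both ways, with Mylip, Abcg1 and Smpdl3a higher and Pltp and Srebf1 lower.

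Of the listed lipoprotein receptor genes 3 were measured and all 3 were called, 1 higher and 2 lower. Vldlr, a receptor that the Mylip protein marks for degradation, fell from 11.33 ± 0.16 to 10.21 ± 0.11 (difference -1.12; adjusted p = 6.6e-07). Lrp8, the Apoe receptor 2 gene and another such receptor, was under the floor on all SThdh111/111 arrays and at least 1.46-fold lower there (adjusted p = 0.044), but its call was lost in 12 of 20 alternatives. That degradation acts on the receptor protein, while the arrays read RNA, and a link between Mylip and these RNA levels was not tested. Lrp1, a large receptor for Apoe particles, rose by 0.82 ± 0.13 (SE; adjusted p = 4.1e-04), a call lost with the mean over its probe sets (0.37).

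Of 6 other sterol transporter genes 1 rose and 2 fell. Scarb1, the receptor that exchanges cholesterol with high-density lipoprotein, fell from 11.37 ± 0.07 to 10.15 ± 0.10 (difference -1.22; adjusted p = 4.7e-08). Abca7, a relative of Abca1, fell from 9.65 ± 0.16 to 8.75 ± 0.21 (adjusted p = 1.9e-04). Abca5, a lysosomal relative, rose by 1.28 ± 0.23 (SE; adjusted p = 8.3e-04), a call lost with the mean over its probe sets (0.36). Of 5 apolipoprotein and lipoprotein remodelling genes 2 rose and 0 fell. Apod, a lipocalin that binds small lipids, went from 9.77 ± 0.22 to 14.25 ± 0.10, a difference of 4.48 ± 0.10 (SE; adjusted p = 1.4e-12), and Clu, apolipoprotein J, from 9.53 ± 0.21 to 11.65 ± 0.06 (adjusted p = 2.2e-09). A second Apod probe set, partly under the floor, differed by -0.51 and was not called, and the mean of both was 1.99, while Apoa1 and Apoa4 were below the floor on all arrays.

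Among 16 genes of the lysosomal membrane and of sterol transfer between membranes 4 rose and 3 fell. Lamp2, a lysosomal membrane protein that binds cholesterol, rose from 13.44 ± 0.09 to 14.22 ± 0.10 (difference 0.78; adjusted p = 1.3e-06), and Osbpl9, an oxysterol-binding protein relative, by 0.69 ± 0.08 (SE; adjusted p = 3.0e-05), a call lost with the mean over its probe sets (adjusted p = 0.091). The cytosolic sterol carriers Stard4 and Stard5 fell, Stard4 from 10.73 ± 0.10 to 9.48 ± 0.08 (adjusted p = 1.2e-07) and Stard5 from 9.85 ± 0.35 to 9.18 ± 0.08 (adjusted p = 0.0047), the latter at -0.39 without SThdh7/7 samples 1 and 2. Stard3, which tethers late endosomes to the endoplasmic reticulum, was at 10.69 ± 0.15 and 10.62 ± 0.06 and was not called (adjusted p = 0.64). Of 6 lysosomal lipid hydrolase and cofactor genes 2 rose and 1 fell. Hexa, the alpha subunit of hexosaminidase, rose from 12.92 ± 0.07 to 13.79 ± 0.10 (adjusted p = 2.3e-07) and Psap, the saposin precursor, by 0.26 ± 0.06 (SE; adjusted p = 0.0054), where quantile normalization gave -0.0085 and no call, and the call was also lost after centring and with no trend. Galc, which degrades galactosylceramide, fell, at a log2 difference of -1.18 (adjusted p = 4.3e-04), a call lost with the mean over its probe sets (-0.37).

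Of 7 oxysterol and sterol ester genes 1 rose and 2 fell. Nceh1, a neutral cholesterol ester hydrolase, fell from 11.53 ± 0.18 to 10.29 ± 0.07 (adjusted p = 2.2e-07), and Plin2, a coat protein of lipid droplets, from 13.40 ± 0.06 to 12.54 ± 0.19 (adjusted p = 4.9e-06). Cyp27a1, a sterol hydroxylase of mitochondria, rose (adjusted p = 0.019), by 0.74 when the 2 SThdh7/7 arrays under the floor were set to it, but averaging its probe sets gave -0.40 and no call. Its call was also lost without SThdh7/7 samples 1 and 2 (0.64, adjusted p = 0.076) and without SThdh111/111 sample 1, 2 or 4 (adjusted p = 0.053, 0.0505 and 0.051). Of 4 genes that regulate lysosomes 1 rose and 1 fell, both by little: the lysosomal channel gene Mcoln1 by 0.25 ± 0.06 (SE; adjusted p = 0.0071) and the transcription factor gene Tfe3 at a difference of -0.46 (adjusted p = 0.0103). Both calls were lost with no trend (adjusted p = 0.11 and 0.079), and the difference of Mcoln1 was -0.090 when its probe sets were averaged. The call of Tfe3 was also lost without SThdh7/7 samples 1 and 2 (-0.25) and after centring (-0.31, adjusted p = 0.073). With values under the floor set to it, Tfe3 was not called either (adjusted p = 0.052).

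**Figure D4:**
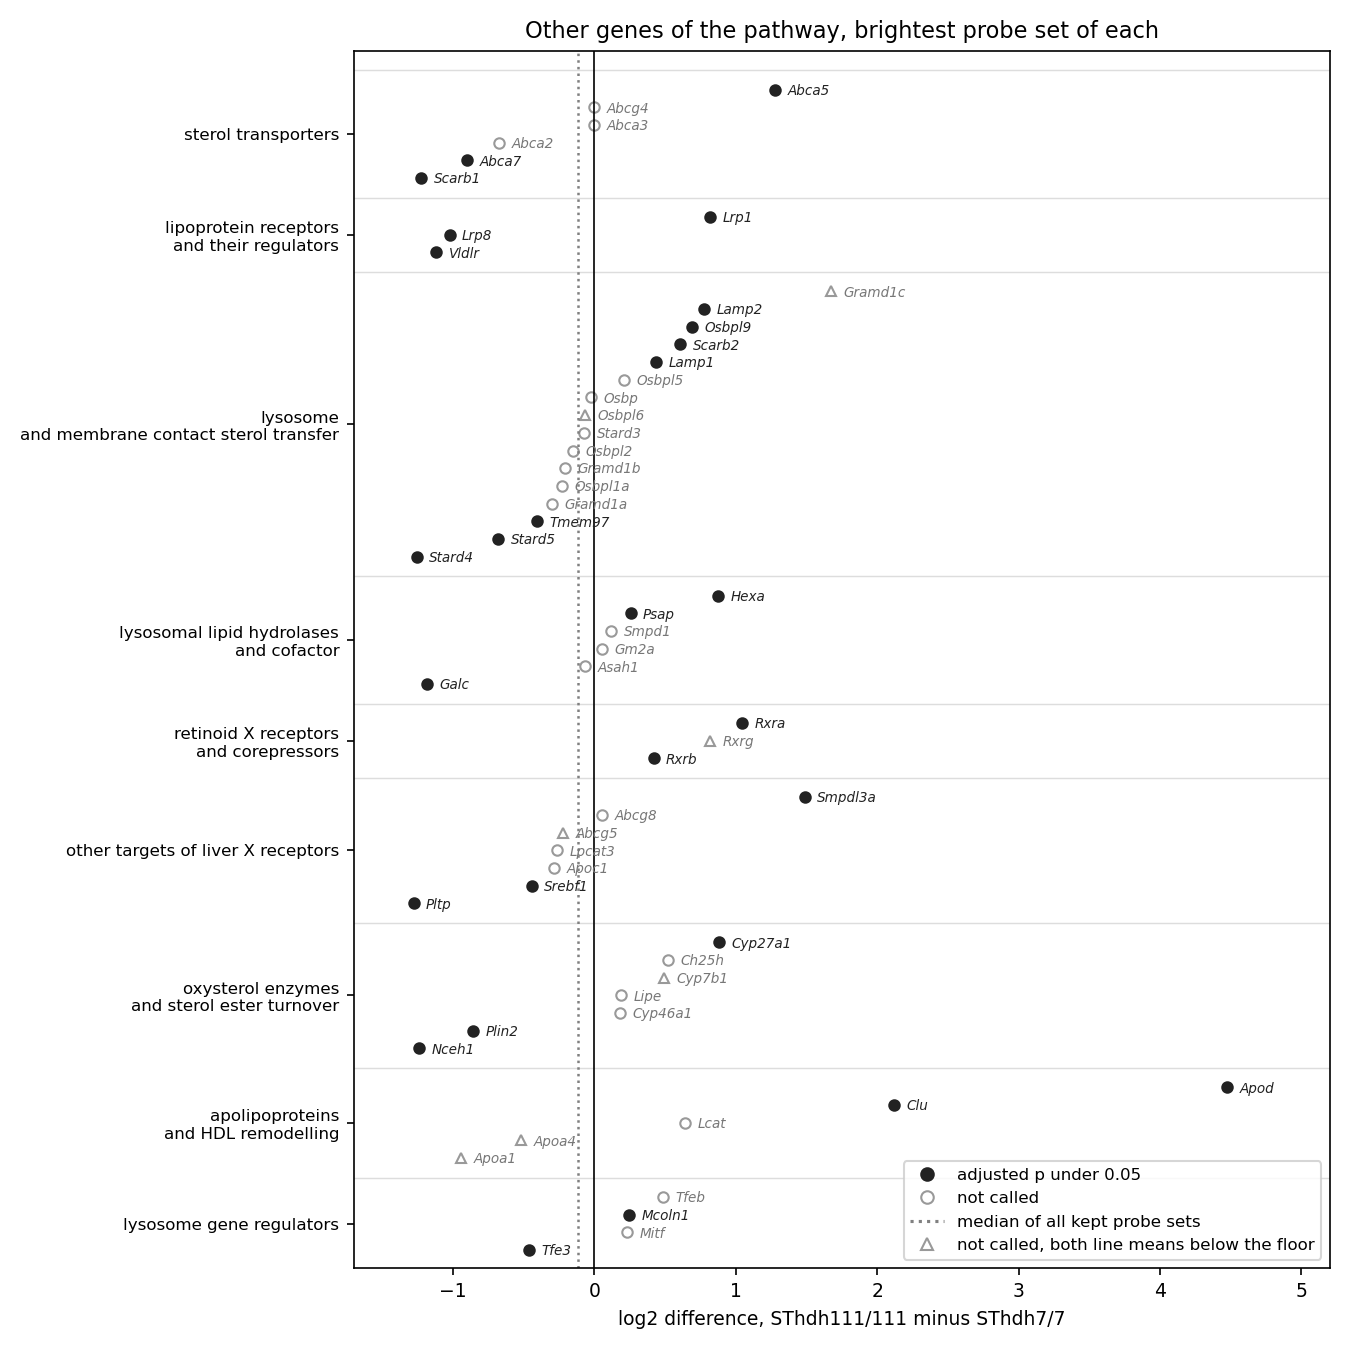
Difference between the lines (horizontal axis, log2, SThdh111/111 minus SThdh7/7) of the 57 other pathway genes in 9 lists, at the brightest probe set of each, filled where the adjusted p was under 0.05 and triangular where neither line's mean reached the floor. Filled points lie on both sides of 0, 15 to the right and 13 to the left, from Pltp at -1.28 to Apod at 4.48.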

How the data were processed

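Total RNA was purified with Tri-reagent and columns, biotin-labelled and hybridised to expression arrays, per the labels' protocols. The deposited table gives a linear intensity, as the authors made it, for every probe set on every array. The submitters' processing notes name GCRMA, without a version, but the values have the form of MAS5 signals, with a trimmed mean of 500.0 on every array, so the tool is not settled. Genome build and annotation are not given in the sources used here.

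Here log2 was taken with no pseudocount, 64 control probe sets were left out, and the 41409 of 45037 others that reached a log2 of 4 on at least 4 of 8 arrays were kept. Gene names came from GEO's annotation of the platform, with symbols updated by gene number: 34945 probe sets had 1 gene, 932 several and 9160 none. Differences were fitted on all 8 arrays with limma 3.58.1 (lmFit, eBayes with an intensity trend) in R 4.3.3. Tests were two-sided, and p-values were adjusted over all kept probe sets by Benjamini-Hochberg. The fit was tested on simulated data. Intervals are 95% from the moderated fit. Bounds ("at least") set the brighter mean against the detection floor. A gene's brightest probe set has the highest mean over 8 arrays. All member probe sets are named, and of the other lists Scarb1, Stard3, Rxra, Rxrb and Srebf1 and, by adjusted p, the first 2 genes called higher and the first 2 called lower in each list. A further gene of this rule is not reported here. Members and lists were chosen with earlier results of these data known. Alternatives were other filters, scalings, offsets, variance models and probe set rules, and left-out samples. Motifs were searched with Python 3.11.15 and figures drawn with matplotlib 3.10.9.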

Additional observations from a re-analysis of the deposited data

Results flagged for a closer look

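Of 84 groups of 4 arrays examined, over the member probe sets and the other named genes, 4 held an array whose gap to its nearest neighbour, as a share of the group's range, exceeded Dixon's 95% critical value, about as many as the 5% that chance gives. Abca1 at 1421839_at was at 9.09 on SThdh111/111 sample 2 against 9.30 to 9.34 on the other 3. Npc1 was at 8.48 on SThdh7/7 sample 4 against 8.34 to 8.36. Npc2 at 1443266_at, below the floor throughout, was at 3.26 on SThdh111/111 sample 4 against 3.74 to 3.79. Vldlr at 1434465_x_at was at 10.05 on SThdh111/111 sample 2 against 10.25 to 10.28.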

How the results depend on the processing

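The 4 member genes called kept that count, and stayed higher, under all alternatives except averaging the probe sets of a gene, which called 3, and the fit without SThdh7/7 sample 3, which called 5. Member probe sets called ranged from 4 to 7, and other pathway genes called from 20 to 28. Leaving out probe sets that can match several transcripts gave 6132 calls over all probe sets against 9288, with fewer tested. Signs turned at the dim or uncalled Abcg1 1455221_at (-0.083 with an offset of 16, -0.70 to 0.53 leaving out 1 sample), Apoe (-0.76 to 0.11) and Lipa 1423140_at (-0.072 to 0.25, and -0.22 without SThdh7/7 samples 1 and 2). They also turned for Cyp27a1 (-0.40) and Mcoln1 (-0.090) when probe sets were averaged, for Mcoln1 without the probe sets that can match several transcripts (-0.76, where a dimmer probe set took its place), for Psap after quantile normalization (-0.0085) and for Stard3 after centring (0.084). The cause was not tested. The sample number was shared by the lines but did not pair the arrays: deviations of same-numbered arrays correlated at -0.01 to 0.01, and with the sample number as a replicate block 8828 probe sets, 6 member probe sets, 4 member genes and 27 other pathway genes were called, with Lrp8 no longer called (adjusted p = 0.0605). Signals near the floor limit what can be said of Apoe, Nr1h3 and the second Abcg1 probe set.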

Other observations

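Of the other pathway genes named above, 12 had more than 1 probe set above the floor on every array, and in all 12 these probe sets were called in the same direction. The 4 of Clu rose by 2.12 to 3.13 and the 4 of Lamp2 by 0.78 to 1.41, the 4 of Vldlr differed by -1.13 to -0.79 and the 3 of Scarb1 by -1.24 to -1.13. Npc2 and Lipa, with 3 such probe sets each, had 2 called and 1 not called. Most of the 12 genes were named for a low adjusted p at their brightest probe set, which favours agreement. Npc2 and Lipa were not named in that way, so the contrast with them is not like with like. The share of agreeing genes over all genes was not taken. The floor rule also left out dimmer probe sets. Some had the opposite sign and were not called, as for Mcoln1, Abca5, Apod and Galc. Others had the same sign, as for Vldlr and Stard5.

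Genes of the lysosomal and sterol transfer list outside the naming rule, given here after their values were seen, were Scarb2, a lysosomal membrane protein, which rose by 0.61 ± 0.08 (SE; limma adjusted p = 1.0e-04), Lamp1, a lysosomal membrane glycoprotein, which rose by 0.44 ± 0.05 (SE; adjusted p = 3.6e-05), and Tmem97, a sterol-responsive membrane protein that binds Npc1, at a difference of -0.41 (adjusted p = 0.033).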
